A study of Mus musculus with 2 samples.

Results

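Neutrophil-lineage cells with secondary granule genes were looked for among mouse bone marrow cells sorted for surface E-cadherin. A cell was counted as a member when it held at least 1000 UMIs (unique molecular identifiers, each tagging 1 captured RNA molecule), when Camp, Ngp and Ltf together made up at least 0.3% of its UMIs, when Mcpt8 stayed under 0.5% of its UMIs, and when Prg2 and C1qa each had fewer than 3 UMIs. Camp, Ngp and Ltf encode secondary granule proteins of neutrophils, whereas Mcpt8, Prg2 and C1qa mark basophils, eosinophils and macrophages. This gave 413 of the 10377 cells of the series: 382 of 6632 cells in the E-cadherin+cKIT+ library and 31 of 3745 cells in the E-cadherin+cKIT- library.

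Both populations came from the bone marrow of FVB mice, for which no treatment is named. The study was concerned with the lineages that carry E-cadherin, the product of Cdh1, and separated them by the receptor cKIT, which marks progenitor and mast cells. Its text calls the donors wild-type and a legend calls them Vav-iCre;mTmG mice, in which the Vav promoter drives Cre in blood cells and Cre switches a fluorescent reporter; the age is not given in the sources used here. Each population was 1 library, and the cells of both are said to come from 3 mice, with no map from cells to mice, so no difference between the libraries has a replicate check and no p-value is given. The study's antibody list counts CD11b and LY-6G/C, which maturing neutrophils carry, among its lineage markers. By flow cytometry of bone marrow, the paper reports that surface E-cadherin was not seen together with CD11b or Gr-1. It also reports a background of E-cadherin staining in knockout and isotype controls, lower than the signal in control mice. The legend of the sort refers to a gating strategy that another legend ties to live singlet, non-erythroid and lineage-negative gates, and the drawn gates were not used here.

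Neutrophils are made in the bone marrow in steps that can be read from their granules. Dividing promyelocytes fill primary granules with myeloperoxidase and the serine proteases elastase, proteinase 3 and cathepsin G. Myelocytes, the last dividing stage, and metamyelocytes then make secondary granule proteins such as lactoferrin, cathelicidin and neutrophilic granule protein, under control of the transcription factor C/EBPε. Band and segmented cells make gelatinase of the tertiary granules and take up receptors that let them leave for the blood.

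The genes that define the members lie close together on chromosome 9. On GRCm38, the build of the files, Camp lies at chr9:109847379-109849617 on the minus strand, Ngp at chr9:110419747-110423012 on the plus strand and Ltf at chr9:111019271-111042767 on the plus strand (GENCODE release for GRCm38). Elane, the elastase gene, lies at chr10:79886247-79888215 and Retnlg, the gene of the resistin-like protein gamma of mature neutrophils, at chr16:48872621-48874496. The promoter windows of these 5 genes are shown because the first 3 chose the members and the other 2 mark the ends of the variation described below. Each window spans 250 bases before to 50 bases after the RefSeq start site (GRCm38.p6), is written 5′ to 3′ on the gene's own strand, and has in capitals every match on either strand of TTGCNNAA, a pattern of the kind C/EBP factors bind. The windows lie at chr9:109849407-109849706 (Camp), chr9:110419558-110419857 (Ngp), chr9:111019042-111019341 (Ltf), chr10:79886062-79886361 (Elane) and chr16:48872358-48872657 (Retnlg).
Camp: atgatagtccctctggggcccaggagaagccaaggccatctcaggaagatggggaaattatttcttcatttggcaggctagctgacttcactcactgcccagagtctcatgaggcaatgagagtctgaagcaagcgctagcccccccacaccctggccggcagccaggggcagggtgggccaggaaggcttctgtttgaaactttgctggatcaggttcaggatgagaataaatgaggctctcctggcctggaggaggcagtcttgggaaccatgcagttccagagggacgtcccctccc
Ngp: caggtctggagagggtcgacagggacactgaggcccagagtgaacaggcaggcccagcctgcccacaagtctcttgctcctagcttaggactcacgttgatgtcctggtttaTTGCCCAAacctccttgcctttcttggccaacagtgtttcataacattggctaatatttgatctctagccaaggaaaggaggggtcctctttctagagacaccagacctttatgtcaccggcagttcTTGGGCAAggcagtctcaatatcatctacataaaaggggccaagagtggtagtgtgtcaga
Ltf: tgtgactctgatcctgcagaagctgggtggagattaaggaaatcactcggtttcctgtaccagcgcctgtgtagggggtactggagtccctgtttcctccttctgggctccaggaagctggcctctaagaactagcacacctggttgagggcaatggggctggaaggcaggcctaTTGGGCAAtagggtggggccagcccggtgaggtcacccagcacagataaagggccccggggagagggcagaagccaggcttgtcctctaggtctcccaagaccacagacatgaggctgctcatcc
Elane: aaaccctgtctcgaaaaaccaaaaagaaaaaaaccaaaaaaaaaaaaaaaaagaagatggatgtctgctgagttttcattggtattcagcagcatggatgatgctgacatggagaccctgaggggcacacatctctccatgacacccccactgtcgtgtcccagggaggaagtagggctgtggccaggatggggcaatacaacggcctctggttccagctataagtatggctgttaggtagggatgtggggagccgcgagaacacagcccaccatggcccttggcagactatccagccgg
Retnlg: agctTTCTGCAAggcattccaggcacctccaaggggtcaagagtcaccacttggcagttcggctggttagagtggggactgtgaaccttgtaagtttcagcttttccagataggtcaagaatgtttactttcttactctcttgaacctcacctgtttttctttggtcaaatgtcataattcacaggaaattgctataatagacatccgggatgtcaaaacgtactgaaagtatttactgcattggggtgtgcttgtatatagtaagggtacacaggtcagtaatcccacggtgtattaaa

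The Ngp window held 2 matches, starting 138 and 11 bases before the start site, the Ltf window held 1 and the Retnlg window held 1, whereas these letters were not in the Camp and Elane windows. Of 13 neutrophil genes looked up, all were found and 7 had a match in at least 1 window, namely Ngp, Ltf, Retnlg, Lcn2, S100a9, Mmp8 and Ly6g. In all 32851 windows of the table, 10.8% held the pattern. A match is a run of letters and not a measured binding site.

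Members made up 5.95% of the 6425 cKIT+ cells with at least 1000 UMIs (95% exact binomial interval 5.38 to 6.55%) and 0.841% of the 3688 such cKIT- cells (0.572 to 1.19%). These intervals, like all others here, cover counting error only. Camp, Ngp and Ltf took a median of 12.6% of a member's UMIs in the cKIT+ library, up to 21.1%, and 8.30% in the cKIT- library, up to 16.5%. The 3 members nearest to the threshold held 0.305, 0.322 and 0.361% in the cKIT+ library, and the 3 cells nearest below it 0.296, 0.291 and 0.285%. In the cKIT- library these shares were 0.319, 0.348 and 0.394% inside and 0.226, 0.214 and 0.153% outside. Of the members, 22 of 382 in the cKIT+ and 6 of 31 in the cKIT- library held under 1%, and 6 and 4 under 0.5%. A further 41 cKIT+ and 2 cKIT- cells were left out for Mcpt8, 23 and 0 for Prg2 or C1qa, and 19 and 0 for fewer than 1000 UMIs. The libraries shared 10 cell barcodes, of which none belonged to a member.

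**Figure D1:**
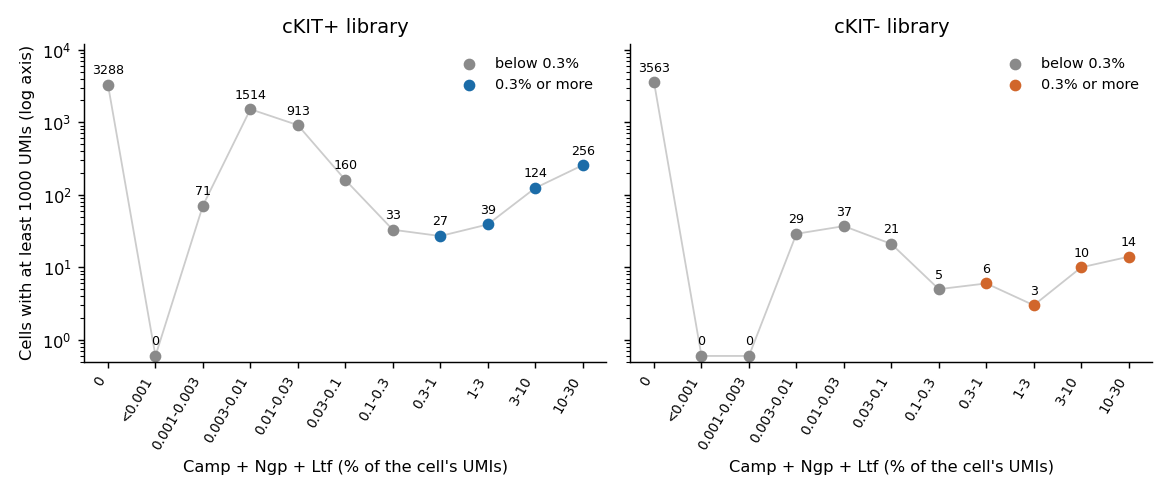
Number of cells with at least 1000 UMIs (log axis, points at the bottom stand for 0 cells) by the share of Camp, Ngp and Ltf in a cell's UMIs, in the cKIT+ library (left) and the cKIT- library (right), with coloured points at or above the 0.3% threshold, before cells were left out for Mcpt8, Prg2 or C1qa. In the cKIT+ library 256 cells held 10% or more, and 33 and 27 cells lay in the bins just below and just above the threshold.

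The members held 5398938 UMIs in the cKIT+ library, with a median of 12757 per cell (range 1028 to 73838), and 221858 in the cKIT- library, with a median of 5799 (2236 to 20193). Levels are given as CPM, the UMIs of a gene summed over the members of a library per 1000000 of all their UMIs, with an exact Poisson 95% interval. The smallest level that 3 UMIs can give was 0.556 CPM in cKIT+ members and 13.5 CPM in cKIT- members, so a gene at 0 in the latter can still have been present at a low level.

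The label was checked against the markers Ltf, Camp, Ngp, Lcn2, S100a8 and S100a9. The members were chosen by the measured UMI shares of the first 3 of these and by limits on Mcpt8, Prg2 and C1qa, so only Lcn2, S100a8 and S100a9 bear on the name. S100a8 and S100a9, the subunits of the antimicrobial protein calprotectin, were the most abundant RNAs and together took a median of 31.7% of a member's UMIs in the cKIT+ library (1.44 to 47.8%) and 40.7% in the cKIT- library (22.8 to 49.7%). In other cells of the cKIT+ library with at least 0.5% Mcpt8, called basophil-gene cells here, the median was 0.0107%. S100a9 was at 131995 CPM in cKIT+ members and 212086 CPM in cKIT- members, and S100a8 at 112841 and 151475 CPM. Lcn2, the iron-chelator binding lipocalin, made up a median of 1.31% of a cKIT+ member's UMIs (0 to 3.77%) and 1.5% of a cKIT- member's (0.224 to 2.51%). After thinning every cell to 1000 UMIs, Lcn2 was seen in 92.4% of cKIT+ and 100% of cKIT- members, against 6.22 and 8.99% of basophil-gene cells. The unthinned shares were 98.2 and 100% of members against 40.8 and 41.1%, so the name holds in both libraries on genes that the rule did not use.

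**Figure D2:**
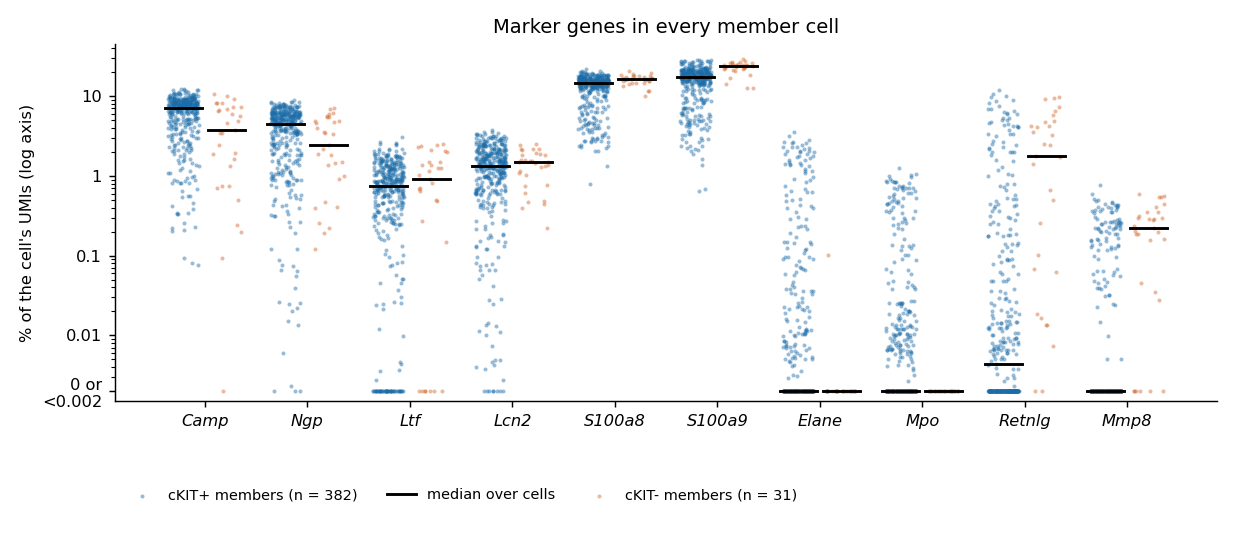
Share of each cell's UMIs (log axis, with cells under 0.002% drawn at the bottom) for the 6 marker genes, for Elane and Mpo of the primary granules, and for Retnlg and Mmp8 of later stages, with 1 point per member of the cKIT+ (blue, n = 382) and cKIT- (orange, n = 31) library and black bars at the median over cells. S100a8 and S100a9 were high in nearly all members, whereas Elane and Mpo ranged from 0 to 3.55% and 1.25% in the cKIT+ library and Retnlg was high in most cKIT- members.

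Secondary granule genes other than the rule genes were also abundant. Chil3, which encodes the chitinase-like protein Ym1, was at 11479 CPM in cKIT+ members and 9001 CPM in cKIT- members. Lyz2 (lysozyme) stood at 10314 and 17759 CPM, Anxa1 (annexin A1) at 3182 and 6752 CPM, and Pglyrp1 (a peptidoglycan recognition protein) at 2287 and 2420 CPM. The subunits of the NADPH oxidase, the enzyme of the oxidative burst, were present in both libraries, with Cyba at 1920 and 2064 CPM and Cybb at 1103 and 1442 CPM. Cebpe, the gene of C/EBPε, was the most abundant of the 13 transcription factors listed in cKIT+ members at 725 CPM, and Spi1 (PU.1) the most abundant in cKIT- members at 627 CPM. Irf8, a factor of monocytes and dendritic cells, had 25 UMIs in cKIT+ members and none in cKIT- members.

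Of the sorting genes, Cdh1 was nearly absent from the members' RNA, while Kit was low but present in the cKIT+ library. Cdh1 was at 5.74 CPM in cKIT+ members (95% interval 3.90 to 8.15) and at 9.01 CPM in cKIT- members (1.09 to 32.6), from 2 UMIs, a ratio of 1.57 (0.182 to 6.17). It stood at 102 and 181 CPM in the basophil-gene cells of the libraries. A Cdh1 UMI was found in 20 of 382 cKIT+ members (5.24%) and 1 of 31 cKIT- members (3.23%), compared with 73.0 and 74.0% of basophil-gene cells, and at 1000 UMIs per cell the shares were 0.524 and 3.23% against 11.5 and 20.2%. Kit stood at 24.6 CPM (20.6 to 29.2) in cKIT+ members, with a UMI in 82 of 382 cells, above the 18.6 CPM of basophil-gene cells and below the 54.9 CPM of the Elane cells described below. In cKIT- members it was at 4.51 CPM (0.114 to 25.1), from 1 UMI, a ratio of 0.183 (0.0046 to 1.04). In contrast, the genes of the lineage antigens were present: Ly6g at 375 and 1136 CPM and Itgam, the gene of CD11b, at 180 and 379 CPM. Surface protein was sorted and RNA was sequenced, and how the 2 relate in these cells was not tested.

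Markers of monocytes and basophils were low beside the cells chosen for them. The T and NK cell list stood at 479 CPM in cKIT+ and 460 CPM in cKIT- members. It was led by Nkg7 in the former and Cd3d in the latter, which are described at the end. The 8 monocyte markers together reached 8.52 CPM in cKIT+ members, with F13a1 the most abundant, and none had a UMI in cKIT- members. They stood at 3737 CPM in the 140 cKIT+ cells chosen for monocyte genes. Csf1r, Ccr2, F13a1, Ms4a6c and Ly86 of this list chose those cells, so part of that gap was also fixed by the choice. The dendritic cell list was higher in those 140 cells, at 29567 CPM, so they are not monocytes alone. The 10 basophil markers, led by Mcpt8, reached 984 CPM in cKIT+ and 586 CPM in cKIT- members, against 47586 and 92385 CPM in basophil-gene cells. Since the basophil-gene cells were chosen by Mcpt8 and the rule limited it in members, part of this gap was fixed by the choice. Mcpt8 itself, which the rule limited, had a UMI in 262 of 382 cKIT+ members, with a median share of 0.0105% and a maximum of 0.494%. At 0 in cKIT- members were Il4 and Gata1. The erythroid list stood at 594 CPM in cKIT+ members, but 1 cell held 96.2% of the Hbb-bs UMIs, 94.8% of the Hba-a1 UMIs and 77.5% of the Car1 UMIs. Of the 382 cKIT+ members, 47 were among the cells with the highest Scrublet doublet scores (at 0.8% per 1000 cells) and 36 were called doublets by Scrublet. Over all 6632 cKIT+ cells these counts were 352 and 256. Among the 31 cKIT- members both counts were 0, against 112 and 3 over all 3745 cKIT- cells. The part of free RNA and of doublets in these markers was not tested.

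The question that the sort poses for these cells is how members with and without surface cKIT differ. The cKIT- members carried a larger share of late neutrophil genes and a smaller share of primary granule and cell division genes among their UMIs. Mitochondrial genes were at 17288 CPM in cKIT+ and 8091 CPM in cKIT- members, and the median number of genes per cell was 2512 and 1249. What these values have to do with the differences was not tested. In summed counts, fewer cells of a stage and less RNA per cell cannot be told apart. A level of 50 CPM in the members of either library was reached by 2339 genes, of which 50 (2.14%) had a ratio of 4 or more towards cKIT- members and 245 (10.5%) towards cKIT+ members (234 with genes under 3 UMIs in cKIT- members set at 3), with a median log2 ratio of -0.38. Ratios carry a 95% interval from the exact binomial of the 2 sums. Because S100a8 and S100a9 took 36.4% of all UMIs in cKIT- members and 24.5% in cKIT+ members, every other gene has a smaller remainder to share in the former. Of the genes past 4-fold, 16.9% were higher in cKIT- members with the total UMIs as the scale. When the 10 most abundant genes were taken out of the total, every log2 ratio moved by 0.42 towards cKIT- members, more genes reached 50 CPM, and 41.2% of those past 4-fold were higher in cKIT- members.

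Primary granule genes took a larger share in cKIT+ members. Together they were at 10989 CPM in cKIT+ members (10900 to 11077) and 1695 CPM in cKIT- members (1528 to 1875), 6.48-fold higher in the former (5.86 to 7.19). Of 7 tested genes 5 were past 4-fold in this direction and 0 in the other. Elane was at 3900 CPM in cKIT+ members and 63.1 CPM in cKIT- members, where its 14 UMIs came from 1 cell. Prtn3 (proteinase 3) was at 1846 and 58.6 CPM, and Ms4a3, a gene of granulocyte-monocyte progenitors, at 632 and 67.6 CPM. Mpo (myeloperoxidase) at 1657 CPM and Ctsg (cathepsin G) at 846 CPM had no UMI in cKIT- members, which makes them at least 123-fold and 62.6-fold lower there when set against 3 UMIs. The other 2 tested, Cd63 and Serpinb1a, were at 851 and 1257 CPM in cKIT+ members and 550 and 956 CPM in cKIT- members. The list's ratio of cKIT- over cKIT+, 0.154, was 0.515 among members with Elane under 0.1% of UMIs.

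Secondary granule genes other than the 3 of the rule were together at 41880 CPM in cKIT+ and 55549 CPM in cKIT- members, a ratio of 1.33 (1.30 to 1.35). The sum of all 13, of which the rule genes made up the larger part, was 143600 and 157601 CPM, and 1 of 13 was past 4-fold. That was Fcnb (ficolin B), at 899 CPM in cKIT+ members and 221 CPM in cKIT- members. Its ratio (cKIT- over cKIT+) of 0.246 (0.182 to 0.325) lay at the edge of the threshold and was short of it with TMM scaling (0.277), without the 10 most abundant genes in the total (0.329), without ribosomal, S100a8, S100a9 and rule genes in the total (0.265) and with the rule genes at 1% or more (0.283). In the other 7 alternatives it was past the threshold, among them 0.157 with equal weight per cell and 0.237 with the study's cell filter. In 1 of these 7, the Retnlg range described below, Fcnb had no UMI in cKIT- members. With 3 UMIs set there it was short of the threshold. Camp was at 60092 and 52998 CPM, Ngp at 35360 and 37357 CPM and Ltf at 6268 and 11697 CPM. The ratio of Ltf was 1.87 (1.79 to 1.94), but 1.27 with equal weight per cell, 1.22 at 1000 UMIs per cell and 0.995 among members with Retnlg at 0.1% or more of their UMIs and Elane below that, called the Retnlg range here. Those of Camp and Ngp over the summed UMIs lay within 1.2-fold of 1. Ngp was above 1 under each of the other scalings of the total (1.14 to 1.41), but at 0.742 with equal weight per cell and 0.747 at 1000 UMIs per cell, and Camp was at 0.685 and 0.705 under these settings and at 1.18 without the 10 most abundant genes in the total. Olfm4 (olfactomedin 4), made by a subset of neutrophils, was at 540 and 1258 CPM.

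Tertiary granule genes were at 625 CPM in cKIT+ members (604 to 646) and 3547 CPM in cKIT- members (3304 to 3804), a ratio of 5.68 (5.25 to 6.14), and 3 of 4 tested genes were past 4-fold. Mmp8, the neutrophil collagenase, was 7.23-fold higher in cKIT- members (6.43 to 8.12), at 1708 against 236 CPM. Collagenase is usually placed in secondary granules, but Mmp8 was counted in the tertiary granule list throughout. It was the most abundant gene of that list in both libraries, so the list's ratio does not belong to tertiary granules alone. Mmp9, the gelatinase, was 7.20-fold higher (6.30 to 8.20), at 1334 against 185 CPM, and Adam8, a surface protease, stood at 81.1 against 10.4 CPM. The genes of the mature neutrophil list were at 7400 and 28662 CPM, a ratio of 3.87 (3.77 to 3.98), and 4 of 13 tested were past 4-fold. Retnlg was the highest of them at 19030 CPM in cKIT- members (18460 to 19613) and 2220 CPM in cKIT+ members (2180 to 2260), a ratio of 8.57 (8.27 to 8.88). Without Retnlg the mature neutrophil list was at 5180 and 9632 CPM, a ratio of 1.86 (1.78 to 1.94). With every cell given the same weight the ratios were 4.46 for Retnlg, 4.12 for Mmp8 and 4.17 for Mmp9. The formyl peptide receptor gene Fpr1 was at 104 against 17.8 CPM and Stfa2l1, a stefin, at 117 against 24.8 CPM. Stfa2 was also past 4-fold, but 94.9% of its 39 UMIs in cKIT- members came from 1 cell, and stefin genes are near-identical copies whose reads can be split. S100a6 (calcyclin) was the 1 gene of 5 tested S100 genes past 4-fold, at 1789 against 439 CPM.

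Several genes of the surface and migration list were higher in cKIT- members, by less than 4-fold on the scale of total UMIs. Of its 13 tested genes none passed in either direction, and 10 had an interval above 1, as did 450 of all 2339 genes (19.2%). Cxcr2, which draws neutrophils to the blood, was at 126 CPM in cKIT- and 32.4 CPM in cKIT+ members, a ratio of 3.89 (2.51 to 5.83), from 28 UMIs in the former. It passed 4-fold under other scales (4.39 with TMM and 5.21 without the 10 most abundant genes in the total) and was 1.22 in the Retnlg range described below. Ly6g had a ratio of 3.03 (2.65 to 3.46), which was 1.86 with equal weight per cell and 1.06 in that range. Cxcr4, which holds neutrophils in the marrow, was at 131 against 88.5 CPM with an interval of the ratio from 0.978 to 2.15.

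Genes of cell division pointed the other way. The S phase list was at 2007 CPM in cKIT+ members and 920 CPM in cKIT- members, a ratio of 0.458 that ranged from 0.241 among members of the Retnlg range to 0.613 without the 10 most abundant genes in the total, and 3 of 15 tested genes (Mcm3, Rrm1 and Clspn) were at least 4-fold higher in cKIT+ members, against 10.5% of all genes. The G2 and mitosis list was at 3740 and 1104 CPM, 3.39-fold higher in cKIT+ members (2.99 to 3.86), with 9 of 25 tested genes past 4-fold, among them Ube2c at 372 against 36.1 CPM, Cenpf at 164 against 18 CPM and Ccnb2 at 117 against 18 CPM. Mki67, the proliferation marker, was seen in 231 of 382 cKIT+ members and 4 of 31 cKIT- members. At 1000 UMIs per cell these shares were 22.8 and 3.23%, against 20.4 and 17.4% of basophil-gene cells. Ribosomal protein genes, a list added after the values were seen, were at 103462 and 24412 CPM, and 53 of 74 tested were at least 4-fold higher in cKIT+ members.

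**Figure D3:**
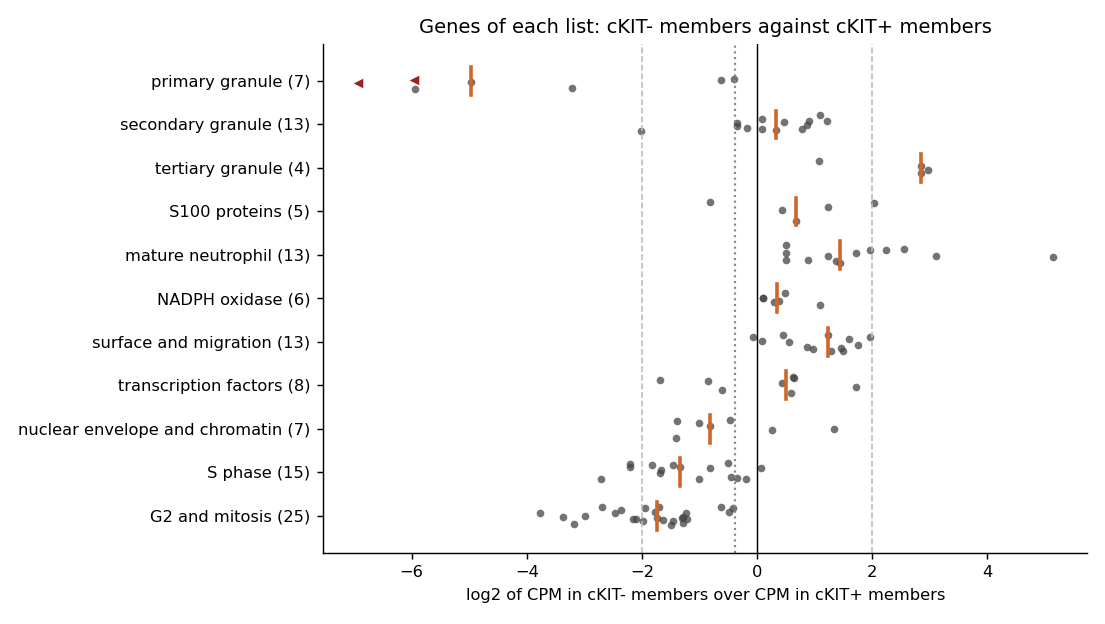
log2 ratio of CPM in cKIT- members over cKIT+ members, with 1 point per tested gene and the number tested in brackets, red triangles for 2 genes with no UMI in cKIT- members drawn at the ratio that 3 UMIs would give, orange bars at the list median, dashed lines at 4-fold and a dotted line at the median of all 2339 genes (-0.38). Primary granule genes lay to the left, with 5 of 7 past 4-fold, and tertiary granule genes to the right, with 3 of 4 past 4-fold.

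Outside the lists, the highest ratios towards cKIT- members were those of Ccl6 and Ccl3, but 57.1% and 91.7% of their UMIs in these members came from 1 cell each, and both chemokines were also at 1245 and 1169 CPM in the basophil-gene cells of this library. BC117090, BC100530 and Gm5483 of the stefin family were also among the 15 highest, with the same doubt over near-identical copies, and 78.1% of the Gm5483 and 45.1% of the BC100530 UMIs in cKIT- members came from 1 cell each. Of the other genes among the 15 highest, Bst1, an ectoenzyme, was at 81.1 against 5.56 CPM, Prok2, a chemokine-like peptide, at 58.6 against 4.26 CPM, Cyp4f18, which breaks down leukotriene B4, at 140 against 13.5 CPM (458 CPM in basophil-gene cells of the cKIT- library) and Il1f9 (interleukin 36 gamma) at 67.6 against 6.85 CPM. Thbs1 (thrombospondin 1) and Timp2 (an inhibitor of metalloproteases) were both at 257 CPM in cKIT- members and at 30.4 and 29.3 CPM in cKIT+ members. Trpm2, Gpr27, Tpm4 and Acta2 completed the 15, with ratios from 8.59 to 9.61. Towards cKIT+ members, genes with no UMI in cKIT- members were ranked at the ratio that 3 UMIs would give, at most 10.7 (Pdia6) outside the lists. Genes with 1 or 2 UMIs there were ranked at their own ratio, which put Nme1, a nucleotide kinase (32.5-fold, interval 5.82 to 1287), Cdk6, a cell cycle kinase (31.8-fold, 5.70 to 1259), and Hspe1, a mitochondrial chaperone (28.1-fold, 5.02 to 1110), first, each from 1 UMI. At 3 UMIs their ratios would be 10.8, 10.6 and 9.36, so that they cannot be placed above the genes at 0. The nucleolar genes Npm1, Nop58 and Nhp2 were also among the 15, with Npm1 at 640 CPM in cKIT+ and 45.1 CPM in cKIT- members. Nop58 and Nhp2 each had 1 UMI in cKIT- members, and their ratios would be 4.85 and 6.16 at 3 UMIs. The remaining 9 were Hist1h1e, Ssr2, Hmgn1, Llph, 0610012G03Rik, Knstrn, Apoe, Selenoh and Rsl1d1, with ratios from 14.1 to 23.8, each from 1 or 2 UMIs in cKIT- members and with lower bounds from 2.51 to 6.57. At 3 UMIs their ratios would run from 4.68 (Rsl1d1) to 15.9 (Hist1h1e). Of these 9, only Hist1h1e would stay above the 10.7 of Pdia6.

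The members were then divided by Elane and Retnlg, with 0.1% of a cell's UMIs as the boundary for each. These boundaries were set after the values were seen, so that levels of the 2 genes in the groups are no result, and the groups are ranges of a continuous spread and not types. In the cKIT+ library 71 members had Elane only (the Elane range), 219 had neither (the middle range), 90 had Retnlg only (the Retnlg range) and 2 had both. In the cKIT- library the numbers were 1, 8, 22 and 0. The Retnlg range therefore held 23.6% of cKIT+ and 71.0% of cKIT- members. Within 2-fold of the boundaries lay 25 (Elane) and 26 (Retnlg) cKIT+ members and 1 and 3 cKIT- members. Elane and Retnlg were rarely high in the same cell, with a Spearman correlation of -0.41 across the 382 cKIT+ members, which share a library and differ in depth. Both cells that had both genes were among the highest Scrublet scores, as were 10, 29 and 6 cells of the Elane, middle and Retnlg ranges.

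**Figure D4:**
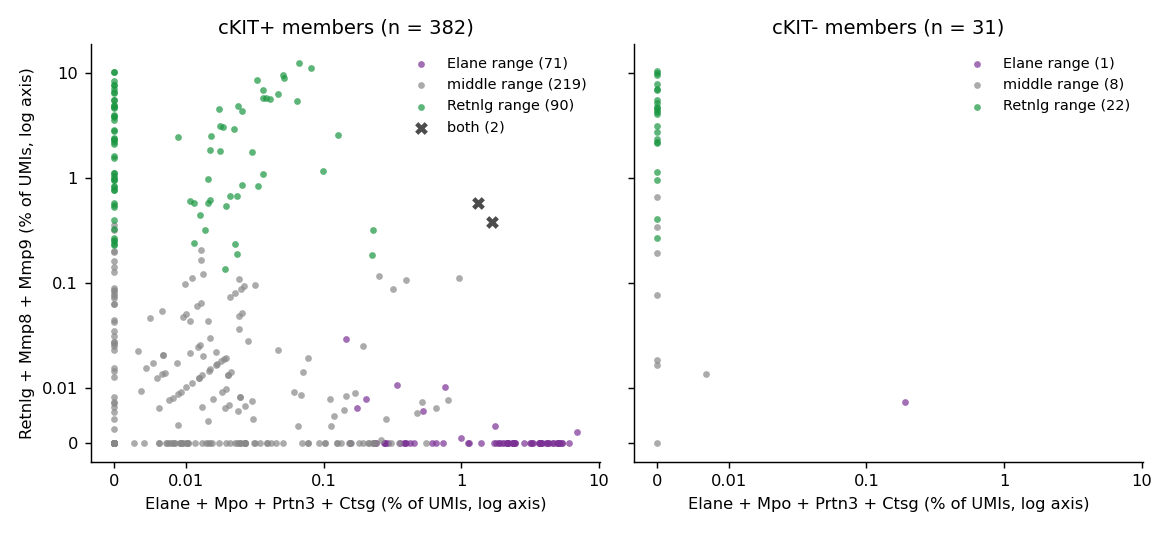
Each point is a member, placed by the share of its UMIs from the primary granule genes Elane, Mpo, Prtn3 and Ctsg (horizontal) and from Retnlg, Mmp8 and Mmp9 (vertical), on log axes with cells at or near 0 drawn on the axis labelled 0, for cKIT+ (left, n = 382) and cKIT- (right, n = 31) members coloured by range. The 2 crosses are cells with both genes at 0.1% or more, and in the cKIT- library 22 of 31 members lay in the Retnlg range.

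Within the cKIT+ library the lists followed an order from the Elane range over the middle range to the Retnlg range. Primary granule genes without Elane, which set the ranges, were at 17602, 2725 and 1697 CPM, mature neutrophil genes without Retnlg at 2536, 5561 and 10251 CPM, and S phase genes at 3012, 1786 and 569 CPM. The G2 and mitosis list was at 3663, 4446 and 551 CPM, so that it was highest in the middle range and low only in the Retnlg range. Secondary granule genes were at 72876, 179669 and 150436 CPM. The larger part of this, 54895, 127211 and 98711 CPM, came from Camp, Ngp and Ltf, which chose the members. Ltf and Lcn2 differed from Camp within this list: Camp was at 40987, 72549 and 49723 CPM, whereas Ltf was at 1086, 8105 and 10526 CPM and Lcn2 at 2535, 14524 and 16431 CPM. Chil3 and Fcnb were lower in the Retnlg range than in the middle range, Chil3 at 15401 against 6006 CPM and Fcnb at 728 against 76.6 CPM, after 1584 CPM in the Elane range. Tertiary granule genes were at 101, 301 and 3597 CPM. Mmp8 and Mmp9 had no UMI in the 71 cells of the Elane range, 34.0 and 74.3 CPM in the middle range, and 1839 and 1222 CPM in the Retnlg range. S100a6 was at 20.8, 187 and 2820 CPM and Ly6g at 15.8, 383 and 1269 CPM.

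Counted by genes, 142 of 2675 (5.31%) were at least 4-fold higher in the Retnlg range than in the Elane range of cKIT+ members and 400 (15%) at least 4-fold lower, with Elane and Retnlg themselves left out of the list counts. Lower were 19 of 20 tested S phase genes, 22 of 24 tested G2 and mitosis genes and 4 of 6 tested primary granule genes. Higher were 4 of 4 tested tertiary granule genes, 6 of 13 secondary granule genes (Ltf, Lcn2, Lyz2, Anxa1, Cd177 and Olfm4), 6 of 11 tested mature neutrophil genes and 6 of 13 surface and migration genes, among them Cxcr2 at 178 against 9.46 CPM. The 13 secondary granule genes include Camp, Ngp and Ltf, which chose the members, and Ltf is among the 6. In all counts by list, Cd177 belongs to both the secondary granule and the surface and migration list. Cxcr2 belongs to both the mature neutrophil and the surface and migration list, so these counts overlap. Of the transcription factors, Klf2 was higher, at 275 against 21.4 CPM, and Gfi1 lower, at 13 against 80.1 CPM. The 3 ranges also differed in depth and in ribosomal share: the median was 21836, 13354 and 5959 UMIs per cell and 18.3, 3.11 and 1.72% of UMIs from ribosomal protein genes. The basophil list stood at 932, 1038 and 888 CPM. The part of depth in these differences was not tested.

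**Figure D5:**
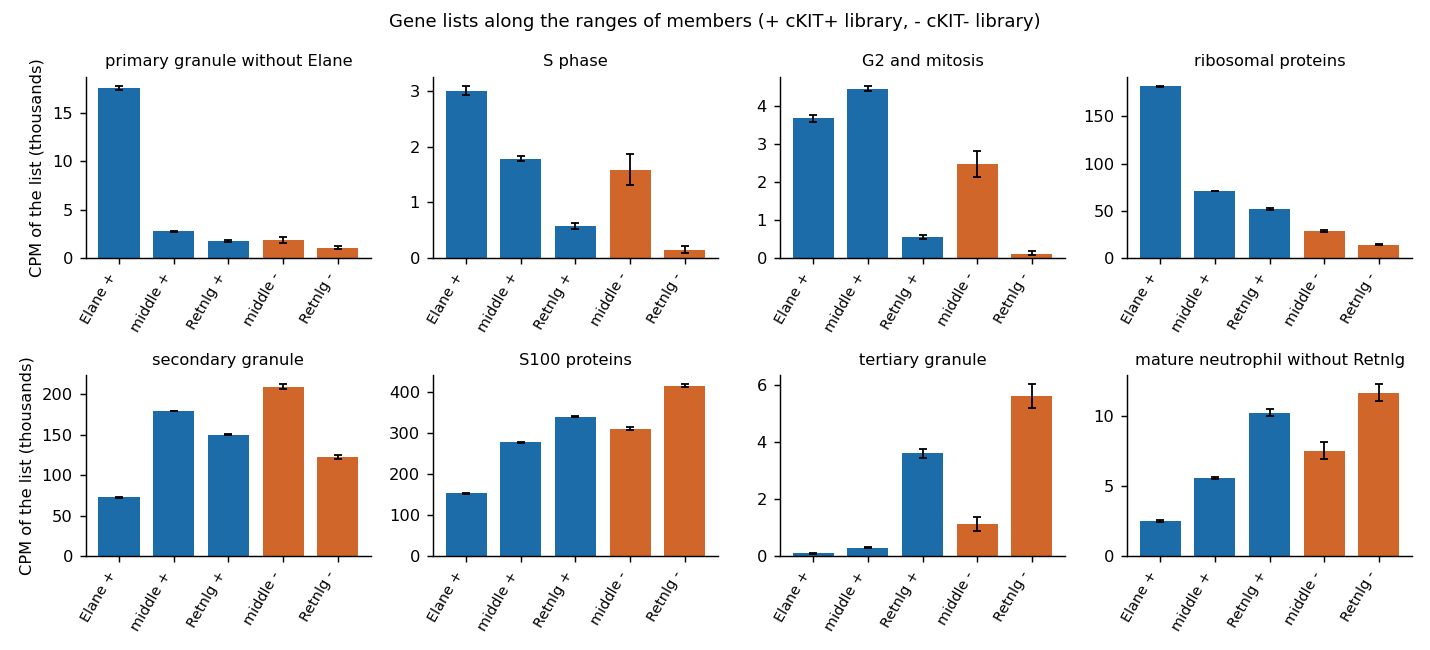
Summed level of 8 gene lists (in units of 1000 CPM, bars start at 0, error bars are exact Poisson 95% intervals, Elane and Retnlg left out because they set the ranges) in the Elane, middle and Retnlg ranges of cKIT+ members (blue, 71, 219 and 90 cells) and in the middle and Retnlg ranges of cKIT- members (orange, 8 and 22 cells). The single cKIT- cell of the Elane range and the 2 cells with both genes are not drawn. The secondary granule list includes Camp, Ngp and Ltf, which chose the members. Primary granule genes were highest in the Elane range, G2 and mitosis genes low only in the Retnlg range, and tertiary granule and mature neutrophil genes highest in the Retnlg range of either library.

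In the fewer cKIT- members the middle and Retnlg ranges were compared, since the Elane range held 1 cell. From the 8 cells of the middle range to the 22 of the Retnlg range, the G2 and mitosis list was at 2456 CPM (2132 to 2815) and 113 CPM (61.6 to 189), the tertiary granule list at 1109 CPM (895 to 1358) and 5584 CPM (5176 to 6016), and the secondary granule list at 209746 and 122699 CPM. Of the secondary granule list, 143383 and 72908 CPM came from Camp, Ngp and Ltf, which chose the members. Olfm4 was at 2658 CPM in the middle range and 451 CPM in the Retnlg range, whereas in cKIT+ members it was higher in the Retnlg range (1404 CPM) than in the middle range (551 CPM), although the median cell of both cKIT+ ranges had no Olfm4 UMI. The cKIT- values rest on 5 of 8 and 3 of 22 cells with an Olfm4 UMI. When members of the Retnlg range were set against each other, 12 of 1964 genes (0.611%) were at least 4-fold higher in the cKIT- and 171 (8.71%) in the cKIT+ library. Of the 171, 45 had no UMI in the cKIT- cells, where 3 UMIs are 24.1 CPM, and 136 were left with such genes set at 3 UMIs and 86 with every gene under 3 UMIs set there. Of 5 tested tertiary granule genes none was past 4-fold, and the list was at 3597 CPM in cKIT+ and 5584 CPM in cKIT- cells of this range, a ratio of 1.55 against 5.68 over all members. Mmp8 was at 1839 and 2800 CPM and Mmp9 at 1222 and 2092 CPM, and of the mature neutrophil genes only Stfa2 passed, the gene carried by 1 cell. Mpo (121 CPM) and Ctsg (142 CPM) had UMIs in 19 and 20 of the 90 cKIT+ cells of this range, 51.4% and 51.7% of them in 1 cell each, and none in the 22 cKIT- cells. The basophil genes Cpa3 (218 against 24.1 CPM) and Ms4a2 (112 CPM against 0 UMIs) were past the same threshold in the same direction, with UMIs in 16 and 11 of the 90 cKIT+ cells, whereas Gata2 (91.2 CPM against 0 UMIs) was short of it at 3 UMIs, and the part of RNA from other cells in these values was not tested.

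The share of the rule genes did not follow 1 order in both libraries. Among the 96 cKIT+ members with the lowest share (0.305 to 6.33%), 41 lay in the Elane range, 35 in the Retnlg range, 18 in the middle range and 2 had both genes, while of the 95 with the highest share (15.7 to 21.1%) 76 lay in the middle range. In the cKIT- library the 8 members with the lowest share lay in the Retnlg range, as did the next 8. Retnlg and the share of the rule genes had a Spearman correlation of -0.04 across 382 cKIT+ members (Pearson -0.44) and -0.89 across 31 cKIT- members (Pearson -0.88). Ltf and Lcn2 went together across cells in both libraries (Spearman 0.82 and 0.84), as did Camp and Ngp (0.72 and 0.87). Cells of a library share its depth and free RNA, and each gene is part of the total that scales the others, so these are descriptions. Camp, Ngp and Ltf also chose the members, so correlations that hold them are not free of the rule.

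Members were last set beside the 583 cKIT+ cells with Elane at 0.1% or more and Camp, Ngp and Ltf under 0.3%, called Elane cells here, which carry primary granule genes without the secondary granule genes of the rule. The values are a description, since the rule separated these groups. In these cells the primary granule list, including the Elane by which they were chosen, was at 38702 CPM, against 30550 CPM in the Elane range of the members, also cut by Elane, and S100a9 at 736 against 78443 CPM. Ribosomal protein genes took a median of 30.3% of UMIs in Elane cells and 18.3% in the Elane range of the members. Over all members of this library, 122 of 2961 genes (4.12%) were at least 4-fold higher than in Elane cells and 91 (3.07%) at least 4-fold lower. As the rule chose the 2 groups by secondary granule genes, the 13 of 13 genes of that list among the 122 are no result. Of the other lists, 3 of 3 tested tertiary granule genes, 7 of 8 mature neutrophil genes, 3 of 6 NADPH oxidase genes, 3 of 5 S100 genes and 5 of 11 surface and migration genes were higher in members. So were 1 of 7 nuclear envelope and chromatin genes and 1 of 11 transcription factors, while 2 of 7 primary granule genes and 3 of 11 transcription factors were higher in Elane cells. The 7 primary granule genes include Elane, by which the Elane cells were chosen, so that this count is partly fixed by the choice. None of 22 S phase and 25 G2 and mitosis genes passed in either direction. Among the lists of other cells, 3 of 3 erythroid and 1 of 2 T and NK cell genes were higher in members, 2 of 2 monocyte and 1 of 2 early progenitor genes in Elane cells, and 0 of 6 basophil genes passed. Of the erythroid genes, Hbb-bs, Hba-a1 and Hbb-bt each reached 0.1% of UMIs in only 1 of the 382 cKIT+ members. Myb, a factor of progenitors, was at 526 CPM in Elane cells and 130 CPM in members, and Cebpe at 348 and 725 CPM.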

How the data were processed

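The authors sequenced each sorted population as 1 10x Genomics library (kit version 3 in the methods, version 2 in the labels) and, per the submitters' processing notes, used Cell Ranger 3.0.2 and mm10. The deposited values are raw UMI counts, a gene by cell matrix for each library, and were used here as they stand. The members and gene lists were chosen with earlier results of these data known. Counts were summed over members per library and scaled to CPM. With 1 library per group no test was run: sums carry exact Poisson, shares exact binomial (Clopper-Pearson) and ratios exact-binomial 95% intervals, for counting error only. Genes were called at 4-fold or more among those with at least 50 CPM in 1 group, and the fold rule was tested on simulated data. Named genes are list genes with the highest CPM or past 4-fold, the 15 further genes with the highest ratio in each direction, Kit and Cdh1; others named in the text (such as Irf8, Myb, Cxcr4, Olfm4 and Cd3d) were chosen after their values were seen. Thinning drew 1000 UMIs per cell without replacement. Doublets were scored with Scrublet in Scanpy 1.11.5 and kept. TMM factors came from edgeR 4.0.16 in R 4.3.3. Sums used Python 3.11.15, NumPy 2.4.6 and SciPy 1.17.1. Alternatives covered the member rule, scaling, depth, the minimum level and doublets. The colony, flow cytometry and human data were not analysed here, and 1 withheld item is not reported here.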

Additional observations from a re-analysis of the deposited data

Results flagged for a closer look

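Members were put in 4 equal groups by the share of Camp, Ngp and Ltf, and 5 lists moved in opposite directions in the libraries between the lowest and the highest group, with counting intervals on opposite sides of 1. The 5 lists are named because of these intervals, and the groups were cut by the genes that chose the members. The primary granule, NADPH oxidase, transcription factor, nuclear envelope and chromatin, and G2 and mitosis lists were also examined and were not flagged. Cxcr2 is in both the mature neutrophil and the surface and migration list. The difference between the libraries was not tested, and a group holds 7 or 8 cells in the cKIT- library. Highest over lowest, the mature neutrophil list had a ratio of 1.11 in cKIT+ and 0.128 in cKIT- members, and the tertiary granule list 1.11 and 0.249. The ratios of the S100 list were 2.96 and 0.817, and those of the surface and migration list 1.62 and 0.762. For the S phase list they were 0.326 and 2.89. Beside these values, the lowest group held 41 Elane range and 35 Retnlg range cells of 96 in the cKIT+ library, and 8 Retnlg range cells of 8 in the cKIT- library. The basophil list was at 1889 CPM in the lowest and 267 CPM in the highest cKIT+ group (393 and 267 CPM in cKIT-), and ribosomal protein genes took a median of 19.3 and 2.32% of UMIs in these cKIT+ groups. Their part in the ratios was not tested.

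Cells outside the members also carried the rule genes in the cKIT+ library. Of these, 41 were left out for Mcpt8, with a median of 4.86% of UMIs from Camp, Ngp and Ltf, S100a9 at 65086 CPM, Mcpt8 at 11622 CPM and a median of 24368 UMIs per cell, about that of Elane cells (24592). The median number of UMIs was 12757 in cKIT+ members and 14291 in basophil-gene cells of this library. A further 23 were left out for Prg2 or C1qa, with a median of 5.73% from the rule genes and S100a9 at 75631 CPM. The 19 cells under 1000 UMIs held a median of 6.23%. Whether such cells are doublets, carry free RNA or hold both programmes was not tested.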

How the results depend on the processing

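The member counts moved by less than 1.5 times under each alternative tried. The directions of the primary granule, tertiary granule, mature neutrophil, S phase and G2 and mitosis lists and of Retnlg, Mmp8, Mmp9, Ly6g, Cxcr2, S100a8, S100a9, Elane, Prtn3, Mki67, Top2a and Fcnb held in the 9 alternatives of members, scaling and depth that were not cut by Elane or Retnlg, 1 of them chosen after seeing the data. The other 2, members with Elane under 0.1% and of the Retnlg range, were also chosen after seeing the data, and the levels of Elane and Retnlg in them are no result. Ngp changed direction in 6 of all 11, and Camp, Ltf (0.995 in the Retnlg range) and Cebpe in 1 each. Of 187 values for single genes and the S phase list, 102 moved by more than counting error.

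The primary granule ratio (cKIT- over cKIT+, 0.154) was 0.174 with TMM scaling, 0.206 without the 10 most abundant genes in the total, 0.187 with equal weight per cell, 0.20 at 1000 UMIs per cell and 0.20 with the rule genes at 1% or more. It was 0.515 in members with Elane under 0.1% and 0.601 in the Retnlg range. Under these 7 settings in turn, the tertiary granule ratio (5.68) was 6.40, 7.59, 3.62, 4.01, 5.24, 4.51 and 1.55, and 5.08 without the highest Scrublet scores. The mature neutrophil ratio (3.87) was 4.37, 5.18, 2.93, 2.97, 2.91, 3.20 and 1.57, and 3.74 with the study's cell filter, 3.44 without the highest Scrublet scores and 4.18 without ribosomal, S100a8, S100a9 and rule genes in the total. It was 1.86 with Retnlg left out of the list, also chosen after seeing the data. The 1.57 of the Retnlg range includes Retnlg, which set that range. Without Retnlg the list was at 10251 CPM in cKIT+ and 11667 CPM in cKIT- members of the range. The G2 and mitosis ratio (0.295) was 0.395 without the 10 most abundant genes, 0.212 with equal weights, 0.223 at 1000 UMIs and 0.205 in the Retnlg range. The 50 genes at least 4-fold higher in cKIT- members became 191 without the 10 most abundant genes, 245 at 1000 UMIs, 187 with a minimum of 10 UMIs, 11 with 200 CPM, 12 in the Retnlg range and 105 without ribosomal, S100a8, S100a9 and rule genes. The 245 higher in cKIT+ members became 453 at 1000 UMIs, 2858 with 10 UMIs, 88 with 200 CPM, 157 without the highest Scrublet scores and 395 without ribosomal, S100a8, S100a9 and rule genes. The causes were not tested. TMM moved every log2 ratio by 0.17 and the total without the 10 most abundant genes by 0.42, and each changed which genes reached 50 CPM. At 1000 UMIs the 31 cKIT- members leave few UMIs per gene. In the Retnlg range, Mmp8 was 1.52, Mmp9 1.71, Ly6g 1.06 and Cxcr2 1.22, whereas the 1.80 of Retnlg, which set the range, is no result. At 1000 UMIs Retnlg was 4.44, Mmp8 4.34, Mmp9 5.02 and Ly6g 1.36.

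No paired analysis was possible because each group is 1 library. Depth and the 31 cKIT- members limit the comparison: a gene under 13.5 CPM cannot be told from 0 there, and intervals leave out the spread between mice.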

Other observations

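Cd3d, the gene of the delta chain of the T cell receptor complex, was present in the members, whereas Cd3e of the same complex was not detected. It was at 124 CPM in cKIT+ members and 428 CPM in cKIT- members, with a UMI in 237 of 382 and 29 of 31 cells and at most 1.2 and 7.37% of its UMIs in any 1 cell. Cd3e had no UMI in the members of either library, and Trbc2 was at 6.30 and 4.51 CPM. Along the ranges of cKIT+ members Cd3d was at 10.1, 110 and 485 CPM, and it was at 0.763 CPM in Elane cells and 2.07 CPM in basophil-gene cells of this library. Cd3d was picked because of these values, and it lies at chr9:44981786-44987339 on the plus strand of GRCm38. Whether these UMIs come from the Cd3d transcript itself was not tested.

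Nkg7, a granule protein gene of cytotoxic cells, was at 879, 123 and 103 CPM along the same ranges and at 1307 CPM in Elane cells. Padi4, the enzyme that citrullinates histones in neutrophils, was at 83.9 CPM in cKIT+ and 212 CPM in cKIT- members, and at 15.1, 94.0 and 212 CPM along the ranges of the former. Of the other genes of the nuclear envelope and chromatin list, H2afz and Hmgn2 were at 621 and 523 CPM in the Retnlg range of cKIT+ members, against 3257 and 2075 CPM in the Elane range, while Lbr, the lamin B receptor, was at 168 and 175 CPM.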
